A study of Drosophila melanogaster with 10 samples.

Results

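The genes described here are 10 genes of fatty acid and triglyceride synthesis in midguts of male Drosophila melanogaster adults, picked by gene symbol from the 14310 genes of the deposited table of TPM (each gene's share of a library's transcripts, corrected for transcript length). They are ATPCL, ACC, FASN1, FASN2 and Desat1 for making fatty acids, Agpat3, Lpin and mdy for joining them to glycerol, the regulator SREBP, and bmm, a lipase that breaks triglyceride down. All 10 symbols were found. RNA was sequenced from 10 libraries in 2 groups of 5 labelled biological replicates, each from the pooled RNA of 20 midguts. Males of the dHNF4 RNAi genotype were w/Y with mex-GAL4/+ on the second chromosome and UAS-dHNF4 RNAi NIG9310-R2/+ on the third, so that the enterocyte driver mex-GAL4 turns on a hairpin against the nuclear receptor gene Hnf4 in the absorptive cells of the gut. Control males were w1118/Y with UAS-dHNF4 RNAi NIG9310-R2/+ and no driver. Flies of both genotypes were kept at 25 °C, ate yeast alone and were dissected 7 days after eclosion. The driver insertion and its background are found in the RNAi genotype alone, so their part and that of the hairpin cannot be told apart.

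Enterocytes take up fatty acids from digested food and also make them from citrate. ATP citrate lyase cuts citrate to acetyl-CoA, acetyl-CoA carboxylase turns this into malonyl-CoA, and fatty acid synthase assembles the chain, into which a desaturase may place a double bond. Acyltransferases then build phosphatidic acid on glycerol-3-phosphate, lipin removes its phosphate to give diacylglycerol, and diacylglycerol acyltransferase adds the last chain to form triglyceride, which is stored in droplets or packed into lipoproteins. SREBP, which in flies answers to phosphatidylethanolamine and not to sterol, drives genes of this pathway once it is released from its membrane anchor.

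In the libraries labelled dHNF4 RNAi, mdy and Agpat3 fell most of the genes listed above. Lpin, which also serves to join fatty acids to glycerol, fell about as much as ATPCL. Transcripts of mdy were at 0.317 times and those of Agpat3 at 0.388 times the control mean in TPM, and Lpin was at 0.712 times. The early steps ATPCL and ACC and the regulator SREBP were moderately lower, at 0.739, 0.770 and 0.831 times. FASN1 and Desat1 did not pass the test in TPM (limma on log2(TPM + 1), Benjamini-Hochberg adjusted p under 0.05 over all genes tested), and bmm was higher, at 1.499 times. FASN2 was near the floor of the table in both groups.

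What these values mean depends on the scale, because TPM are shares and the whole distribution moved. The median log2 fold change of the 8784 genes tested was 0.55, that is 1.46-fold higher in the libraries labelled dHNF4 RNAi. A second scale divides each library by its median ratio to the mean library (median-of-ratios scaling), which puts that median at 0.01. In TPM 6 of the 10 genes were lower and 1 higher, where 16.3% of all genes tested were called lower, 66.9% higher and 83.2% either way. After median-of-ratios scaling 8 were lower and none higher, against 35.8% lower, 35.6% higher and 71.4% either way among all genes tested. The median log2 fold change of the 10 genes was -0.31 in TPM and -0.91 after that scaling. All 10 passed the filter of a mean of at least 1 TPM over the 10 libraries, FASN2 narrowly. The table keeps no sequencing depth, so the counts behind each value are unknown, and labels call the libraries biological replicates without saying how their flies were reared apart.

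**Figure D1:**
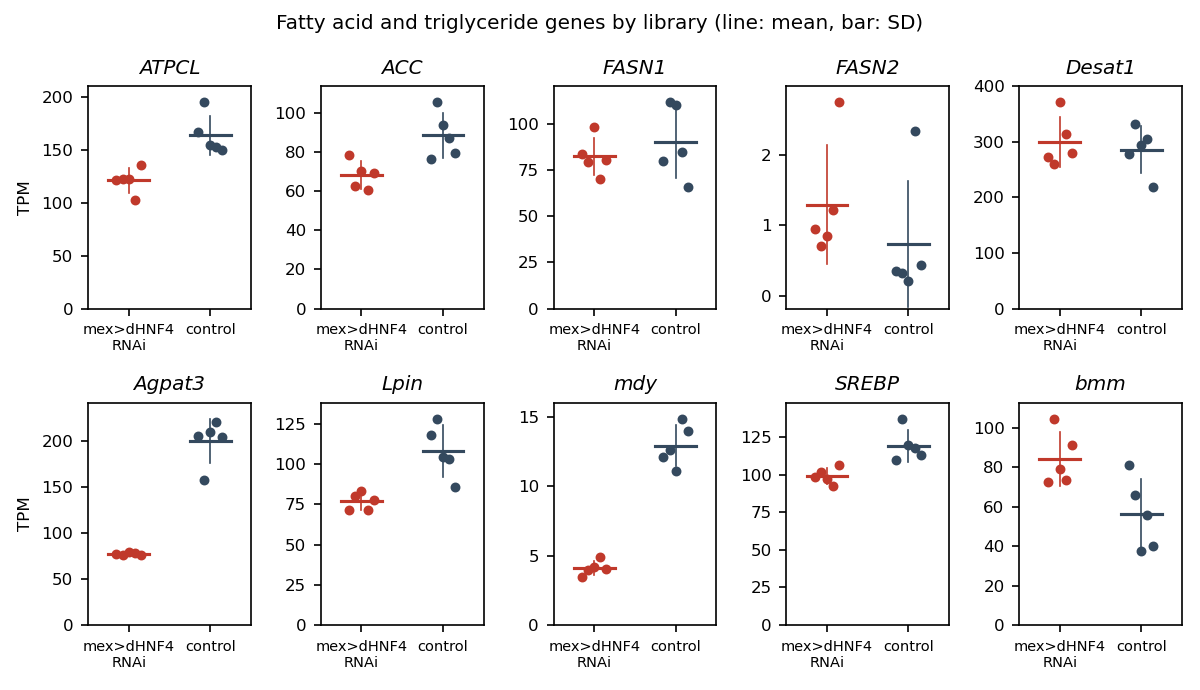
TPM of the 10 genes in each library, with libraries labelled dHNF4 RNAi on the left and controls on the right of each panel. Points are libraries, horizontal lines the mean of 5 and vertical bars 1 SD, and each panel has its own axis including 0. The 2 groups stand fully apart in ATPCL, Agpat3, Lpin, mdy and SREBP, and overlap in the other 5 genes.

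Hnf4 itself, the gene the hairpin targets, was not lower in TPM. It averaged 45.6 ± 2.38 TPM in the libraries labelled dHNF4 RNAi and 38.8 ± 4.92 TPM in the controls (SD, n = 5 each), a log2 fold change of 0.24 (limma adjusted p = 0.0199), and leaving out control replicate 5 gave 0.19, short of the threshold (limma adjusted p = 0.0502). After median-of-ratios scaling it was lower, by -0.35 (limma adjusted p = 0.000815). The authors' deposited log2 fold change for Hnf4 was -0.21, with an unadjusted p of 0.419. Libraries are therefore named by their labels throughout. Of 8 enterocyte markers all were detected, with a summed level of 41806 to 53631 TPM in the libraries labelled dHNF4 RNAi and 49312 to 60113 TPM in the controls. That sum is carried by the digestive enzyme genes alphaTry, betaTry and Amy-p, and the markers did not move together: 2 were higher and 3 lower in TPM, and 2 higher and 6 lower after median-of-ratios scaling. The sterol-binding protein gene Npc2f was at 22.6 ± 5.65 TPM in the libraries labelled dHNF4 RNAi and 470.3 ± 50.9 TPM in the controls, and Amy-p was at 0.470 times the control mean, while mex1 and nub were at 1.82 and 2.32 times. All 6 progenitor markers were higher in TPM (5 after median-of-ratios scaling), and their sum was 122 to 134 TPM in the libraries labelled dHNF4 RNAi against 17.5 to 39.7 TPM in the controls. Of 6 tested fat body markers 5 were lower on both scales, with a sum of 1046 to 1234 TPM in the libraries labelled dHNF4 RNAi against 1796 to 2256 TPM in the controls, most of it from Adh. The fat body storage protein gene Lsp2 was at 0.0406 ± 0.0389 TPM in the libraries labelled dHNF4 RNAi and 3.83 ± 2.75 TPM in the controls. Fbp1, another fat body marker of the list, was near 0 in both, at 0.0340 and 0.0280 TPM on average. In TPM 4 of 7 enteroendocrine markers were higher and 2 lower, and 3 of 8 visceral muscle, 1 of 6 Malpighian tubule and 1 of 3 tested hemocyte markers were lower with none higher. After median-of-ratios scaling 1 enteroendocrine marker was higher and 3 lower, and all 8 visceral muscle, 2 Malpighian tubule and 2 hemocyte markers were lower with none higher. These counts stand beside the shares of all genes tested given above, 66.9% higher and 16.3% lower in TPM, and 35.6% higher and 35.8% lower after scaling. The part of these shifts in the results below was not tested. In bulk RNA, fewer cells of a type and less RNA per cell cannot be told apart.

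The sharpest decrease was in mdy (midway, FBgn0004797, chromosome 2L, 16816660 to 16826964, plus strand, Ensembl annotation of BDGP6.54), the fly diacylglycerol acyltransferase of the DGAT1 type, which catalyses the last step to triglyceride. It measured 3.44, 3.95, 4.18, 4.91 and 4.04 TPM in replicates 1 to 5 labelled dHNF4 RNAi, against 12.1, 12.6, 11.2, 14.9 and 14.01 TPM in control replicates 1 to 5. The groups lay far apart, with every control above 11 TPM and every library of the other group under 5 TPM. The log2 fold change was -1.45 (SE 0.094, limma adjusted p = 1.09e-07), and -1.97 after median-of-ratios scaling (limma adjusted p = 2.88e-08). Within a library, mdy stood at a median rank of 7391 of 8784 genes by level in the dHNF4 RNAi group and of 4342 in the controls, where rank 1 is the most abundant gene. Among all genes tested, 2.87% had a lower log2 fold change than mdy.

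Agpat3 (FBgn0036623, chromosome 3L, 16381772 to 16385957, minus strand), one of the fly acyltransferases that add the second chain to make phosphatidic acid, showed a decrease of like size from a much higher level. Its values were 77.7, 76.6, 80.0, 78.1 and 76.6 TPM in the libraries labelled dHNF4 RNAi and 206, 158, 210, 221 and 205 TPM in the controls. The dHNF4 RNAi libraries agreed closely, with a coefficient of variation of 1.78%, while control replicate 2 stood below the other controls. Its change was -1.34 on the log2 scale (SE 0.083, limma adjusted p = 8.19e-08), and -1.94 after median-of-ratios scaling (limma adjusted p = 1.19e-07). By level the gene was at a median rank of 1515 in the dHNF4 RNAi libraries and 603 in the controls.

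Lpin (FBgn0263593, chromosome 2R, 8136986 to 8156654, minus strand) encodes the phosphatidate phosphatase that supplies diacylglycerol, and it lay between those genes in its place in the pathway but not in its change. It measured 71.7, 80.3, 83.5, 71.2 and 77.5 TPM in the libraries labelled dHNF4 RNAi, against 118, 128, 105, 103 and 85.9 TPM in the controls. The highest library labelled dHNF4 RNAi was just below the lowest control, replicate 5, so the groups did not overlap but nearly touched. Lpin changed by -0.48 on the log2 scale (SE 0.099, limma adjusted p = 0.000847), and -1.07 after median-of-ratios scaling (limma adjusted p = 1.53e-06).

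Of the genes that feed the fatty acid chain, ATPCL (FBgn0020236, chromosome 2R, 15993531 to 16001290, minus strand), which makes cytosolic acetyl-CoA from citrate, was lower on both scales. It measured 122, 123, 122, 103 and 136 TPM in the libraries labelled dHNF4 RNAi and 167, 195, 155, 153 and 150 TPM in the controls. No library of one group reached the other, and control replicate 2 was the highest. ATPCL changed by -0.43 on the log2 scale (SE 0.090, limma adjusted p = 0.000815), and -1.03 after median-of-ratios scaling (limma adjusted p = 8.64e-07).

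ACC (FBgn0033246, chromosome 2R, 7974115 to 7991862, minus strand), whose enzyme commits carbon to fatty acid synthesis, was lower as well. Its values were 78.3, 62.6, 70.1, 60.6 and 69.0 TPM in the libraries labelled dHNF4 RNAi and 76.5, 105, 93.9, 87.2 and 79.3 TPM in the controls. A single pair of libraries overlapped, dHNF4 RNAi replicate 1 lying above control replicate 1, and the groups separated after median-of-ratios scaling. ACC changed by -0.37 on the log2 scale (SE 0.098, limma adjusted p = 0.00419), and -0.96 after that scaling (limma adjusted p = 9.65e-07).

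FASN1 (FBgn0283427, chromosome 2L, 3056598 to 3068177, plus strand), the fatty acid synthase of general use, was not called in TPM. It measured 83.8, 79.1, 98.2, 70.0 and 80.7 TPM in the libraries labelled dHNF4 RNAi against 79.7, 112, 110, 84.6 and 66.0 TPM in the controls. The groups overlapped broadly, and control replicates 2 and 3 were the high ones. FASN1 had a log2 fold change of -0.11, with a 95% interval of -0.43 to 0.20 (limma adjusted p = 0.479). After median-of-ratios scaling the same libraries read 67.1, 64.5, 78.1, 56.8 and 66.6 scaled TPM in the dHNF4 RNAi group against 104.9, 122, 139, 102 and 83.9 scaled TPM in the controls, with no overlap. It was then -0.71 on the log2 scale (95% interval -0.99 to -0.42, limma adjusted p = 0.000487). In rank by level, which no scaling of a library can change, FASN1 was at 1264 to 1637 in the libraries labelled dHNF4 RNAi and at 953 to 1421 in the controls, which overlap.

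Desat1 (FBgn0086687, chromosome 3R, 12439600 to 12447616, plus strand), the desaturase that makes monounsaturated fatty acids, was the most abundant of the 10 transcripts and gave no call in TPM either. It measured 274, 260, 371, 315 and 279 TPM in the libraries labelled dHNF4 RNAi and 279, 333, 294, 305 and 220 TPM in the controls. Replicate 3 labelled dHNF4 RNAi was the highest of all and control replicate 5 the lowest. Desat1 had a log2 fold change of 0.07, with a 95% interval of -0.20 to 0.34 (limma adjusted p = 0.620). Without control replicate 5 it was -0.02 and without dHNF4 RNAi replicate 3 it was -0.01, so a direction in TPM cannot be given. After median-of-ratios scaling Desat1 was lower, by -0.53 (95% interval -0.77 to -0.29, limma adjusted p = 0.00109), with the groups still overlapping. Its median rank by level was 495 in the libraries labelled dHNF4 RNAi and 474 in the controls.

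FASN2 (FBgn0042627, chromosome 2L, 3043947 to 3056143, plus strand) lies next to FASN1, with 454 bases between the annotated genes, and is known as the synthase of oenocytes, cells under the cuticle that make hydrocarbons. Its level was 0.955, 0.707, 0.846, 1.22 and 2.75 TPM in the libraries labelled dHNF4 RNAi against 0.361, 0.333, 0.216, 2.33 and 0.443 TPM in the controls. In each group a single library stood apart, dHNF4 RNAi replicate 5 and control replicate 4. FASN2 had a log2 fold change of 0.45, with a 95% interval of -0.19 to 1.104 (limma adjusted p = 0.171), and 0.20 after median-of-ratios scaling (limma adjusted p = 0.586). The oenocyte marker Cyp4g1, an enzyme of hydrocarbon synthesis, was at 2.71, 5.33, 0.245, 56.1 and 105.9 TPM in the libraries labelled dHNF4 RNAi and at 18.02, 0.496, 4.08, 214 and 13.4 TPM in the controls. Cyp4g1 and FASN3, another fatty acid synthase, were highest in the same libraries of each group as FASN2, FASN3 reaching 0.924 TPM in dHNF4 RNAi replicate 5 and 2.23 TPM in control replicate 4. The 6 oenocyte markers, of which FASN2 and FASN3 are 2, summed to 5.60 to 113 TPM in the libraries labelled dHNF4 RNAi. Their sum was 3.51 to 222 TPM in the controls. In TPM 1 of 4 tested markers was higher and none lower, and none passed after median-of-ratios scaling. Over all genes tested 66.9% were higher and 16.3% lower in TPM, and 35.6% and 35.8% after that scaling. The part of oenocytes or other attached cells in FASN2 was not tested.

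**Figure D2:**
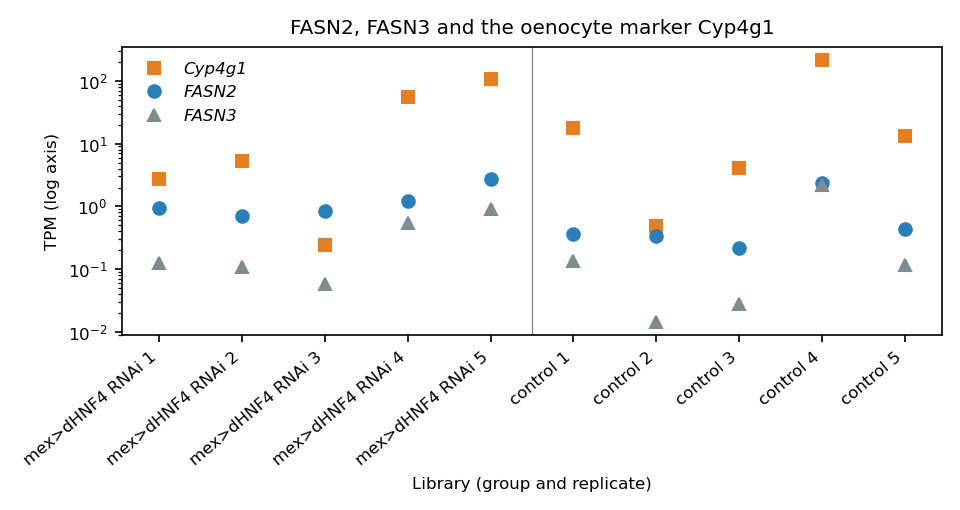
TPM of FASN2, FASN3 and the oenocyte marker Cyp4g1 in each library, on a log axis, with the libraries labelled dHNF4 RNAi left of the line and the controls right of it. All 3 genes peak in dHNF4 RNAi replicate 5 and in control replicate 4, where Cyp4g1 reached 105.9 and 214 TPM.

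SREBP (FBgn0261283, chromosome 3L, 19793935 to 19798979, plus strand), the membrane-bound activator of lipogenic genes, showed a small decrease with little spread. It measured 98.5, 102, 96.8, 92.4 and 106 TPM in the libraries labelled dHNF4 RNAi and 109.7, 137, 120, 118 and 113 TPM in the controls. The groups did not overlap, though dHNF4 RNAi replicate 5 and control replicate 1 were close. The log2 fold change was -0.26 (SE 0.068, limma adjusted p = 0.00380), and -0.86 after median-of-ratios scaling (limma adjusted p = 1.36e-07). Activity of SREBP protein depends on its cleavage, which RNA levels do not show.

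The lipase gene bmm (brummer, FBgn0036449, chromosome 3L, 14776496 to 14786412, minus strand), the fly relative of mammalian adipose triglyceride lipase, went the other way in TPM. It measured 72.5, 104.4, 79.1, 73.3 and 91.3 TPM in the libraries labelled dHNF4 RNAi against 80.9, 66.1, 37.7, 55.7 and 40.2 TPM in the controls. Control replicate 1 lay inside the range of the dHNF4 RNAi libraries, and the controls varied widely, with a coefficient of variation of 32.2%. The log2 fold change was 0.62 (SE 0.198, limma adjusted p = 0.0123), close to the median of all genes tested. After median-of-ratios scaling it was 0.03 (95% interval -0.42 to 0.47, limma adjusted p = 0.911).

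Counted over the 10 genes, the 2 groups did not overlap in 5 genes in TPM and in 7 after median-of-ratios scaling, all of them lower in the libraries labelled dHNF4 RNAi. Among all genes tested, 11.7% were lower without overlap in TPM and 29.4% after that scaling. In TPM the spread relative to the mean was wider in the controls for 8 of the 10 genes. That count was not made over all genes or after median-of-ratios scaling, where it can differ. Scaled SREBP ran from 75.0 to 87.8 in the libraries labelled dHNF4 RNAi and from 142 to 151 in the controls. Control replicate 2 was the highest control in TPM for FASN1, ACC, ATPCL, Desat1, SREBP and Lpin, and for none of the 10 after median-of-ratios scaling, while it was the lowest control for Agpat3 on both scales. In the authors' deposited table, whose median over 10494 genes is 0.13, the log2 fold changes were -1.85 for mdy, -1.65 for Agpat3, -1.12 for ACC, -0.90 for ATPCL and -0.81 for Lpin. That deposited table of the authors gives -0.73 for both SREBP (unadjusted p of 0.0019) and FASN1 (unadjusted p of 0.0300). It gives -0.34 for Desat1 (unadjusted p of 0.271) and 0.65 for bmm (unadjusted p of 0.107). For FASN2 the authors' deposited table has -1.15 with an unadjusted p of 0.268, opposite in sign to the TPM. RUVSeq is in the name the authors gave these results, and how it was used is not described in the sources used here. Their values therefore cannot be taken as the same measure as TPM or scaled TPM.

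**Figure D3:**
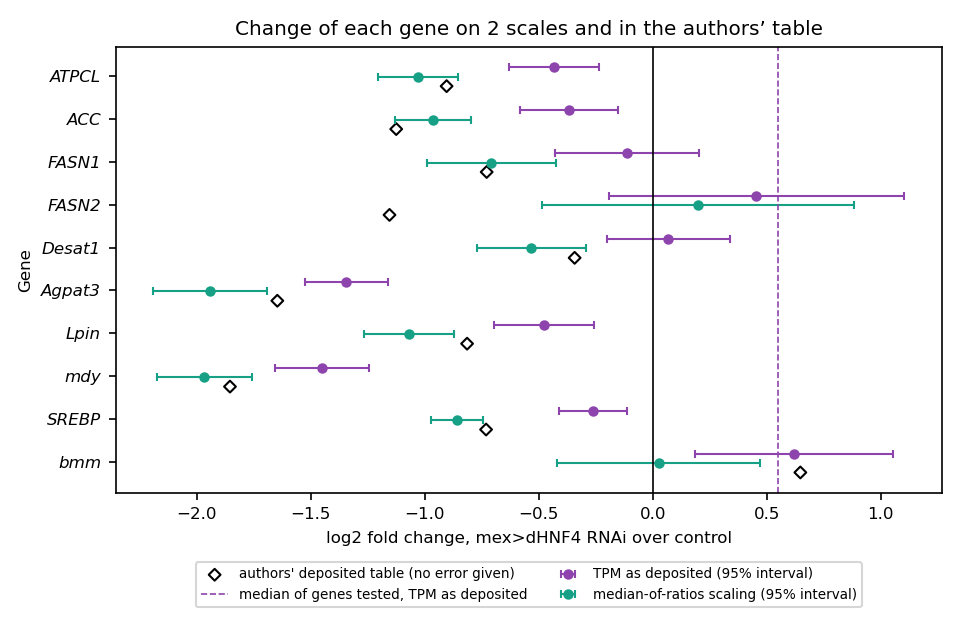
Log2 fold change of the libraries labelled dHNF4 RNAi over the controls for each gene, in TPM as deposited and after median-of-ratios scaling with 95% intervals from limma, and in the authors' deposited table (diamonds, with no error). The dashed line is the median of all genes tested in TPM, 0.55. On both scales mdy and Agpat3 lie furthest to the left, and bmm lies at 0.62 in TPM and 0.03 after scaling.

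A ratio of 2 genes inside a library is nearly free of the choice of scale. It was taken from TPM + 1, which raises the ratios of the low gene mdy above those of the TPM themselves, and 10 such ratios were compared by a two-sided exact permutation test of the group labels, whose smallest possible p is 0.00794. The 5 synthesis genes set against the lipase gene bmm, which were mdy, Agpat3, Lpin, ACC and FASN1, were lower relative to it. These 5 ratios share bmm, whose own log2 fold change was 0.62 in TPM, so they are not separate results. FASN1 by itself was at -0.11 in TPM (limma adjusted p = 0.479). The ratio of mdy to bmm was 0.0470 to 0.0795 in the libraries labelled dHNF4 RNAi and 0.160 to 0.364 in the controls, a difference in log2 ratio of -2.07 (exact permutation p = 0.00794, adjusted over the 10 ratios 0.0198). For Agpat3 to bmm it was 0.737 to 1.07 in the dHNF4 RNAi libraries against 2.38 to 5.46 in the controls, a difference of -1.96 with the same p. Lpin to bmm also separated the groups, by -1.095 with the same p. The differences were -0.99 for ACC to bmm (exact permutation p = 0.0159, adjusted 0.0317) and -0.73 for FASN1 to bmm (exact permutation p = 0.0238, adjusted 0.0397), with overlapping groups. The FASN1 to bmm ratio kept its adjusted p under 0.05 in 3 of 10 comparisons that left out 1 library (control replicate 1, dHNF4 RNAi replicate 1 or dHNF4 RNAi replicate 3), and across the 10 the difference lay between -0.91 and -0.53.

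Among the synthesis genes themselves, mdy fell further than Lpin, with a ratio of 0.0609 to 0.0818 in the libraries labelled dHNF4 RNAi and 0.105 to 0.173 in the controls (difference -0.98, exact permutation p = 0.00794, adjusted 0.0198). For the early steps and their regulator no ratio passed after adjustment. The log2 ratio of ATPCL to ACC was 0.82 ± 0.14 in the libraries labelled dHNF4 RNAi and 0.89 ± 0.15 in the controls (SD, n = 5 each, exact permutation p = 0.516), and that of FASN1 to SREBP was -0.27 ± 0.18 in the libraries labelled dHNF4 RNAi and -0.42 ± 0.24 in the controls (exact permutation p = 0.317). For FASN1 to ACC the log2 ratio was 0.27 ± 0.15 in the libraries labelled dHNF4 RNAi and 0.01 ± 0.18 in the controls (exact permutation p = 0.0397, adjusted 0.0567), a difference of 0.26 that missed the threshold after adjustment and passed it without control replicate 3 (0.31) or without dHNF4 RNAi replicate 1 (0.30). Desat1 to FASN1 stood at 1.85 ± 0.19 in the libraries labelled dHNF4 RNAi and 1.67 ± 0.18 in the controls (exact permutation p = 0.190). A p that misses the threshold does not show that these ratios were equal.

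**Figure D4:**
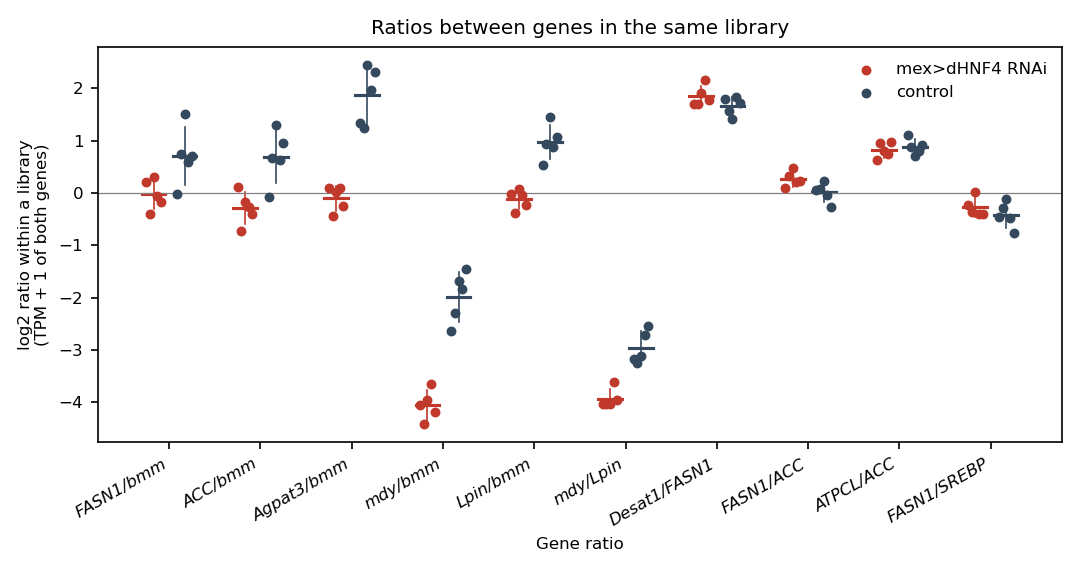
Log2 ratios between gene pairs in each library, from TPM plus 1, with libraries labelled dHNF4 RNAi left of the controls for each pair. Points are libraries, lines the mean of 5 and bars 1 SD. The groups are fully apart for mdy/bmm, Agpat3/bmm, Lpin/bmm and mdy/Lpin, and overlap for the other 6 ratios.

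Transcripts of genes that supply carbon and reducing power to the pathway were mostly lower, as were those of ATPCL and ACC. Of 8 genes for acetyl-CoA, citrate and NADPH supply, 7 were lower and none higher in TPM, and all 8 were lower after median-of-ratios scaling. Over all genes tested 16.3% were lower and 66.9% higher in TPM, and 35.8% lower and 35.6% higher after that scaling. The median log2 fold change of the list was -0.77, against 0.55 over all genes tested. Idh, the NADP-dependent isocitrate dehydrogenase, averaged 483 ± 74.0 TPM in the libraries labelled dHNF4 RNAi and 1529 ± 338 TPM in the controls (log2 fold change -1.65, limma adjusted p = 1.04e-06). The malic enzyme gene Men was at 160 ± 20.3 TPM in the libraries labelled dHNF4 RNAi and 389 ± 40.3 TPM in the controls (-1.28, limma adjusted p = 3.76e-07). The mitochondrial citrate carrier gene sea and the acetyl-CoA synthetase gene AcCoAS also fell, by 0.81 and 0.72 on the log2 scale. The member that missed the threshold in TPM was kdn, the citrate synthase gene, at 0.23 (limma adjusted p = 0.0688), which became -0.37 after scaling (limma adjusted p = 0.0138).

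Genes of fatty acid activation held decreases and a large increase in transcripts. Of 8 tested genes 5 were lower and 2 higher in TPM, and 6 lower and 1 higher after median-of-ratios scaling (median log2 fold change -0.63 in TPM). The shares of all genes tested were 16.3% lower and 66.9% higher in TPM, and 35.8% and 35.6% after scaling. The acyl-CoA synthetase gene CG3961 was at 7.70 ± 0.775 TPM in the libraries labelled dHNF4 RNAi and 30.4 ± 3.25 TPM in the controls (log2 fold change -1.85, limma adjusted p = 1.32e-08). Acsl, a long-chain acyl-CoA synthetase, and Fatp1, a fatty acid transport protein, fell by 1.19 and 0.80 on the log2 scale. In contrast pdgy, another acyl-CoA synthetase gene, rose on both scales, to 110 ± 18.9 TPM against 35.3 ± 3.61 TPM in the controls (log2 fold change 1.61, limma adjusted p = 1.44e-07, and 1.02 after scaling).

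Genes of the route from glycerol to phosphatidic acid moved partly with Agpat3. Of 10 tested genes 5 were lower and 3 higher in TPM, and 7 lower and none higher after median-of-ratios scaling (median log2 fold change -0.34 in TPM). Beside these stand the shares of all genes, 16.3% lower and 66.9% higher in TPM, and 35.8% and 35.6% after scaling. Agpat2, a relative of Agpat3, averaged 30.6 ± 4.31 TPM in the libraries labelled dHNF4 RNAi and 80.7 ± 10.8 TPM in the controls (log2 fold change -1.37, limma adjusted p = 5.31e-07). The glycerol kinase gene Gk1, the acyltransferase gene Gpat4 and the dehydrogenase gene Gpdh1 fell by 0.95, 0.77 and 0.44 on the log2 scale. Other relatives of Agpat3 gave other values. Agpat4 was at 182 ± 11.5 TPM in the libraries labelled dHNF4 RNAi and 194 ± 28.6 TPM in the controls, with a log2 fold change of -0.08 (limma adjusted p = 0.427) that became -0.68 after scaling (limma adjusted p = 0.000332). Agpat1 was higher in TPM (log2 fold change 0.80, limma adjusted p = 0.00104) and at 0.28 after scaling (limma adjusted p = 0.164). The Agpat genes are related and the table does not tell how reads were divided between them.

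Close relatives of the 10 genes did not move as one. Over all 12 tested relatives, Agpat1, Agpat2 and Agpat4 included, 4 were lower and 3 higher in TPM, and 7 lower and none higher after median-of-ratios scaling (median log2 fold change 0.02 in TPM). All genes tested gave 16.3% lower and 66.9% higher in TPM, and 35.8% and 35.6% after scaling. A cluster of diacylglycerol acyltransferase genes of the DGAT2 type on chromosome 2R, unrelated in sequence family to mdy, held CG1946 at 12.0 ± 3.31 TPM in the libraries labelled dHNF4 RNAi and 46.2 ± 5.63 TPM in the controls (log2 fold change -1.89, limma adjusted p = 4.61e-07). Its neighbour Dgat2 fell by 0.59 on the log2 scale from a low level (limma adjusted p = 0.00388), while CG1941, also next to it, was at -0.18 in TPM (limma adjusted p = 0.131, and 0.0392 without control replicate 5) and at -0.77 after scaling. Among the desaturase relatives CG9743 was higher in TPM (0.66, limma adjusted p = 0.000845) and at 0.06 after scaling (limma adjusted p = 0.677), and CG9747 was lower, by -0.45 in TPM. Desat2 and CG15531 were at 0.24 and 0.13 in TPM and did not pass, though Desat2 passed without dHNF4 RNAi replicate 5 (0.31). The lipase gene dob, a close relative of bmm, was at 1.64 ± 0.640 TPM in the libraries labelled dHNF4 RNAi and 1.24 ± 0.346 TPM in the controls (limma adjusted p = 0.265). Hsl, the hormone-sensitive lipase gene, was at 0.32 in TPM and at -0.26 after scaling, past the threshold both times (limma adjusted p = 0.00393 and 0.00867), so its direction follows the scale.

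Genes of the lipid droplet and of lipolysis moved in both directions. Of 13 tested, 4 were lower and 4 higher in TPM, where 16.3% of all genes were lower and 66.9% higher. After median-of-ratios scaling 10 were lower and 2 higher, against 35.8% and 35.6% of all genes. The list had a median log2 fold change of -0.05 in TPM. Lsd-1, the fly perilipin 1 that coats droplets and gates their breakdown, averaged 15.6 ± 3.75 TPM in the libraries labelled dHNF4 RNAi. In the controls it averaged 56.6 ± 12.5 TPM (log2 fold change -1.80, limma adjusted p = 4.13e-06). The related gene Lsd-2 was more abundant, at 366 ± 20.1 TPM in the libraries labelled dHNF4 RNAi and 283 ± 19.9 TPM in the controls. Its log2 fold change was 0.37 in TPM (limma adjusted p = 0.000186) and -0.23 after scaling (limma adjusted p = 0.0378). The secreted gut lipase gene mag fell to 393 ± 120 TPM in the libraries labelled dHNF4 RNAi, against 1127 ± 180 TPM in the controls (log2 fold change -1.56, limma adjusted p = 1.77e-05). Lip4, of the acid lipase family, and PAPLA1, a phospholipase that acts on phosphatidic acid, rose on both scales, by 1.00 and 0.79 in TPM and by 0.42 and 0.20 after scaling.

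The phospholipid branch draws on the same phosphatidic acid and diacylglycerol, and its genes moved in both directions. Of 10 tested genes 2 were lower and 4 higher in TPM, where 16.3% of all genes were lower and 66.9% higher. After median-of-ratios scaling 6 were lower and 1 higher, against 35.8% and 35.6% of all genes. The list had a median log2 fold change of 0.27 in TPM and -0.31 after scaling. The ethanolamine kinase gene eas rose to 134 ± 2.97 TPM in the libraries labelled dHNF4 RNAi, against 77.7 ± 6.71 TPM in the controls (log2 fold change 0.78, limma adjusted p = 4.62e-07), and by 0.18 after scaling (limma adjusted p = 0.0239). Cds, whose enzyme takes phosphatidic acid into the other phospholipids, fell by 0.60 in TPM and by 1.18 after scaling on the log2 scale. The cardiolipin synthase gene CLS and Pcyt1, a gene of phosphatidylcholine synthesis, were higher in TPM at 0.70 and 0.61 and at 0.13 and 0.01 after scaling, where neither passed.

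Genes of the machinery that releases SREBP were higher in TPM, as most genes were. SCAP, its escort protein gene, was at 15.2 ± 0.849 TPM in the libraries labelled dHNF4 RNAi and 12.6 ± 1.54 TPM in the controls (log2 fold change 0.25, limma adjusted p = 0.0113), and at -0.31 after median-of-ratios scaling (limma adjusted p = 0.000425). The cleavage protease genes S1P and S2P were higher in TPM, at 0.55 and 0.42 on the log2 scale, and at 0.08 and -0.12 after scaling, where neither passed. In TPM 6 of the 10 tested regulators were higher and 1 lower, near the shares of all genes tested (66.9% higher and 16.3% lower). After scaling 1 was higher and 6 lower, where 35.6% of all genes were higher and 35.8% lower. The list had a median log2 fold change of 0.22 in TPM and -0.35 after scaling.

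The regulator that was lower on both scales by the widest margin was sug (sugarbabe), a zinc finger factor known in flies to act below the sugar sensor Mondo on lipogenic genes. It averaged 30.9 ± 7.84 TPM in the libraries labelled dHNF4 RNAi and 81.2 ± 31.1 TPM in the controls (log2 fold change -1.33, limma adjusted p = 0.00034, and -1.92 after scaling). Mondo and its partner gene bigmax were at 0.19 (limma adjusted p = 0.0163) and -0.07 (limma adjusted p = 0.418) in TPM, and at -0.40 and -0.66 after scaling, past the threshold both times. Sik3 and foxo, a kinase and a transcription factor on which insulin signalling acts, did not pass in TPM (0.13 and 0.04, Sik3 passing at 0.18 without control replicate 2) and were lower after scaling, by -0.41 and -0.55. The nuclear receptor genes EcR and Hr96 were higher in TPM at 0.80 and 0.58, and after scaling EcR was at 0.29 (limma adjusted p = 0.00155) and Hr96 at -0.0019 (limma adjusted p = 0.984).

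**Figure D5:**
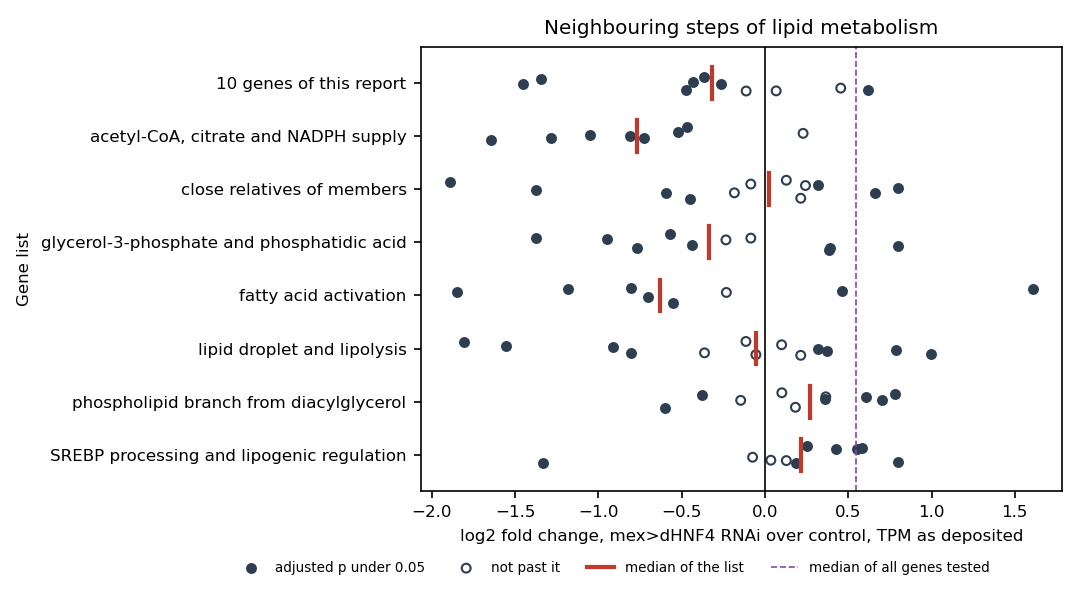
Log2 fold change in TPM of the libraries labelled dHNF4 RNAi over the controls for the 10 genes and for the lists of neighbouring steps, each point a gene. Filled points have a limma adjusted p under 0.05, red bars are list medians and the dashed line is the median of all genes tested, 0.55. List medians run from -0.77 for the supply of acetyl-CoA, citrate and NADPH to 0.27 for the phospholipid branch.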

How the data were processed

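RNA of 10 midgut libraries was sequenced with a stranded Illumina TruSeq protocol, per the labels. The authors deposited TPM for 14310 genes, with library totals of 975327 to 982443. Their own log2 fold change and unadjusted p-value for each gene, also deposited by the authors, were used only where named. FastQC, Trim Galore, kallisto and edgeR on BDGP6 are listed in the submitters' processing notes, with no version and no role. TPM keep no depth, so no counting interval was computed.

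Groups and replicate numbers came from the sample titles. The 8784 genes averaging 1 TPM or more over the 10 libraries were tested on log2(TPM + 1) with limma 3.58.1 in R 4.3.3 (group term alone, mean-variance trend, two-sided), with Benjamini-Hochberg adjustment over all genes tested and a threshold of 0.05. The pseudocount of 1 understates changes of low genes. Fold changes are on this log2 scale, and ratios of means are in TPM. Median-of-ratios factors used tested genes above 0 in all libraries. The limma procedure was run on simulated data with 200 changed genes and no shift of the whole distribution. That run therefore does not cover the shift seen in these data. Coordinates came from the Ensembl annotation of BDGP6.54, which held 14263 of the identifiers. Gene symbols came from the deposited files.

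Named genes were the 10 members, Hnf4, all tested relatives and regulators, and up to 4 called genes of each other list by smallest adjusted p. The genes kdn, FASN3 and Lsd-2 and the single marker genes were named after their values were seen. The members, lists and tests were chosen with earlier results of these data known. Alternatives were other pseudocounts, filters, scalings and moderation, the replicate number as a block, and leaving out each library. Replicates of the same number did not deviate together as a set, though those numbered 4 correlated at 0.36.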

Additional observations from a re-analysis of the deposited data

Results flagged for a closer look

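In 9 of 124 sets of 5 libraries, a single library stood apart from the other 4, its gap to the nearest being over 0.71 of the whole range. Chance alone gives this in about 1 of 20 such sets. FASN2 was at 2.75 TPM in dHNF4 RNAi replicate 5, where the others of the group were at 0.707 to 1.22, and at 2.33 TPM in control replicate 4, where the other controls were at 0.216 to 0.443. The desaturase relative CG15531 was at 3.04 TPM in control replicate 4, against 0.850 to 0.904 in the other controls. In control replicate 2, Agpat3 was at 158.4 TPM against 205 to 221, and Lip4 at 25.3 TPM against 16.1 to 18.5. In dHNF4 RNAi replicate 3, CG9743 was at 484.5 TPM against 366 to 391, and Fatp1 at 103.7 TPM against 87.9 to 92.0. In dHNF4 RNAi replicate 1, pdgy was at 143 TPM against 95.7 to 107.3. The log2 ratio of mdy to Lpin was -3.61 in dHNF4 RNAi replicate 4, against -4.04 to -3.96 in the other libraries of that group.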

How the results depend on the processing

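The decreases of mdy, Agpat3, Lpin, ATPCL, ACC and SREBP kept direction and call under every alternative run. FASN2 passed under none and stayed above 0, while FASN1, Desat1 and bmm changed their call or sign with the scale. Under median-of-ratios scaling the log2 fold change was -0.71 for FASN1, -0.53 for Desat1 and 0.0274 for bmm. Quantile normalization gave -0.42 for FASN1 and 0.29 for bmm, and rescaling without the 20 most abundant and the mitochondrial genes gave -0.0583 for Desat1. With each library left out in turn, the log2 fold change of Desat1 ran from -0.0242 to 0.13 in TPM, and that of bmm after median-of-ratios scaling from -0.0879 to 0.20 (an alternative chosen after seeing the data). The log2 ratio difference ran from -0.91 to -0.53 for FASN1 to bmm and from 0.19 to 0.31 for FASN1 to ACC.

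Signs also turned for pathway genes. Under median-of-ratios scaling the log2 fold changes were -0.35 for Hnf4, -0.31 for SCAP, -0.12 for S2P, -0.40 for Mondo, -0.41 for Sik3, -0.55 for foxo, -0.0019 for Hr96, -0.26 for Hsl, -0.13 for dob, -0.0813 for Desat2 and -0.19 for CG15531. Quantile normalization gave -0.18, -0.29, -0.11, -0.28, -0.40 and -0.34 for the first 6 in that order, and -0.23 for Hsl, -0.0498 for dob, -0.0434 for Desat2 and -0.15 for CG15531. The rescaling above gave -0.088 for foxo. With each library left out in turn foxo ran from -0.0146 to 0.089 and CG15531 from -0.0922 to 0.36. The cause was not tested.

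The number of genes called was 7307 in TPM, 6274 under median-of-ratios scaling and 7164 to 7339 without single libraries, and the share called higher was 80.4% in TPM and 49.9% under median-of-ratios scaling. Same-numbered replicates correlated at -0.33 to 0.36 in their deviations from the group means. The highest value was that of replicate 4, whose libraries were each other's closest match across the groups. As a set the numbers do not pair the libraries. With the replicate block 7249 genes were called and no call of the 10 genes changed. For the 10 ratios the block was fitted with limma in place of the permutation test, and no call changed. FASN2 and 5 other named genes have no value at the filter of 5 TPM, and FASN2 none in 3 of the fits without 1 library. Depth is unknown, so levels near 1 TPM, as of FASN2, Desat2, dob and CG15531, are the least certain.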
